A study of Mus musculus with 6 samples.

Results

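Blood vessel endothelial cells made up 380 of the 24972 cells that passed quality control in this single-cell survey of the proximal mouse aorta. A cell was counted as a member when the UMIs (unique molecular identifiers, each standing for 1 captured RNA molecule) of Pecam1, Cdh5 and Egfl7, which encode a junctional adhesion protein, VE-cadherin and a secreted vessel factor, summed to at least 3, when Ptprc was at 0, when Myh11 was under 5 and Dcn under 20 UMIs per 10000, and when a UMI of at most 1 of the lymphatic genes Mmrn1, Prox1, Flt4, Nts and Pkhd1l1 was found. Members were thus chosen by measured UMIs. Quality control set open limits of 1000 and 5000 genes, of 1500 and 25000 UMIs and of 20% mitochondrial UMIs. The gate genes chose the cells and are not results. Lymphatic-type endothelial cells, 104 in number, passed the same gate but held UMIs of at least 2 of the lymphatic genes.

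The cells came from the root and ascending aorta of 6 female mice aged 16 weeks, dissected from the sinus of Valsalva to the branch of the left subclavian artery after perfusion. Control mice were Tgfbr1+/+ (CTL, 4 mice, of which 2 carried Wnt2CRE and EGFP-L10a, a reporter that marks cells of the cardiac neural crest lineage), and 2 LDS mice were heterozygous for Tgfbr1 M318R, a variant of the type I TGF-β receptor that models Loeys-Dietz syndrome. The deposited matrix pools 6 libraries that differ in the last digit of the cell barcode, and nothing in the labels, the files or the methods pairs that digit with a mouse. No library was therefore given a genotype, LDS and control endothelium were not compared, and no p-values are given. Values are reported by library, by their range and median over libraries, or as a sum over all libraries, to which library 4 gave the most cells.

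Endothelial cells form the inner lining of every blood vessel and differ along the vascular tree. Those of large arteries bear high flow and express connexins and Notch ligands, those of capillaries in muscle and fat take up fatty acids through Cd36, Gpihbp1 and fatty acid binding proteins, and those of venules present selectins to leukocytes. A dissected aorta holds the lining of its own lumen and, in its outer wall and the fat around it, the small vessels that feed the wall.

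Members were found in all 6 libraries. Libraries 1 to 6 held 43, 25, 83, 154, 66 and 9 of them, or 1.33%, 0.874%, 1.65%, 2.41%, 1.18% and 0.483% of their QC cells. The share was highest in library 4, at 2.41% (exact binomial 95% interval 2.05 to 2.81), and lowest in library 6, at 0.483% (0.221 to 0.915), and those intervals, which cover counting error only, do not overlap. The 380 cells held 2198155 UMIs, with a median of 4796.5 per cell against 6532 in other QC cells and 4432 in lymphatic-type cells. Of 1010 QC cells with 3 or more gate UMIs, 369 were left out for Dcn, 155 for Myh11 and 2 for Ptprc. Gate UMIs had a median of 12 and a maximum of 92, with 30 members at exactly 3 and 41 otherwise eligible cells just outside at 2. A doublet caller marked 3 members. No member shared its barcode sequence with a QC cell of another library, although 19 shared one with some deposited barcode.

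**Figure D1:**
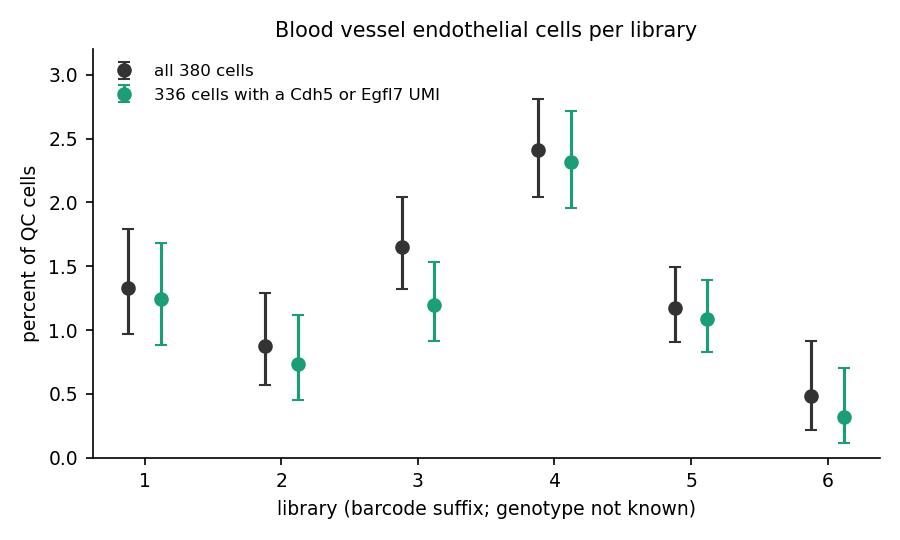
Share of QC cells that were blood vessel endothelial cells, in percent, for each of the 6 libraries (x axis), for all 380 members and for the 336 with a Cdh5 or Egfl7 UMI; bars are exact binomial 95% intervals. Library 4 has the highest share of all members, 2.41%, and library 6 the lowest, 0.483%.

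The label was checked against 30 endothelial genes outside the gate, among them Tie1, Kdr, Emcn, Cldn5 and Sox17. It held for 336 members that carried a UMI of Cdh5 or Egfl7, in which a median of 19 of the 30 genes was found (range 6 to 29). The other 44 members met the gate through Pecam1 alone, with a median of 4.5 (0 to 8), against 13 in lymphatic-type cells. Among QC cells without a UMI of the 3 endothelial gate genes, the median was 3 in those with at least 20 Dcn UMIs per 10000, called fibroblasts here, 1 in those with as many Myh11 UMIs, called smooth muscle cells, and 1 in those with at least 2 Ptprc UMIs, called leukocytes. Libraries 1 to 6 held 3, 4, 23, 6, 5 and 3 of the members with Pecam1 alone.

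**Figure D2:**
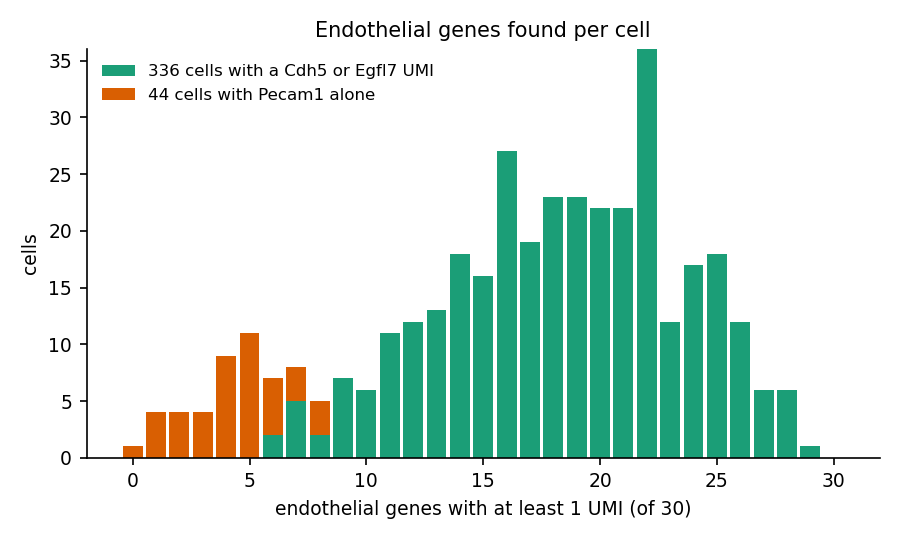
Number of the 30 endothelial genes with at least 1 UMI in a cell (x axis) against the number of cells (y axis, stacked bars). The 44 cells with Pecam1 alone lie between 0 and 8 genes and the 336 with Cdh5 or Egfl7 between 6 and 29.

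Endothelial identity was weak in the 44 cells with Pecam1 alone. Their 30 endothelial genes summed to 1208 CPM (UMIs in 1000000) against 11691 CPM in the 336, and 11 of the 30 were at 0 in them, including Tek, Kdr, Emcn, Cldn5 and Vwf. That sum lay near the 1189 CPM (1006 to 1288 over libraries) of the cells called fibroblasts. Fibroblast markers, which the gate had limited only through Dcn, summed to 14036 CPM (3768 to 22259 over libraries) against 404 CPM, and smooth muscle markers to 5106 against 1154 CPM. Sox9, a chondrogenic transcription factor, stood at 339 against 2.19 CPM, Osr1, a mesenchymal transcription factor, at 425 against 2.19 CPM, Fbln1, a matrix glycoprotein, at 1026 against 13.2 CPM, and Prg4, which encodes lubricin, at 481 against 8.22 CPM. Matrix Gla protein, Mgp, was at 22828 against 1435 CPM. Against the 336, 335 of 6293 genes tested were higher (5.32%) and 608 lower (9.66%), where a gene was called at a log2 ratio of at least 1 in the summed UMIs and the same sign in every library used. The data go against the label for these cells, which are called members with Pecam1 alone, and results they touch are also given for the 336. Across all QC cells, 444 held Pecam1 in this way, with 25.3% of all Pecam1 UMIs.

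Among the genes called higher in members than in all other QC cells, Cd36, Gpihbp1 and Rbp7 had the highest ratios, followed by Cd300lg, Sox17, Cyyr1, Adgrl4 and C1qtnf9, with Fabp4 at rank 9. Cd36 (chromosome 5, 17781690 to 17888801, minus strand, mm10), a fatty acid translocase, was at 2223, 1127, 1528, 2889, 2169 and 490 CPM in the members of libraries 1 to 6 and at 8.55 CPM in other QC cells. Gpihbp1 (chromosome 15, 75596628 to 75599481, plus strand), which carries lipoprotein lipase to the capillary lumen, ranged from 454 to 1468 CPM against 2.68 CPM. Rbp7 (chromosome 4, 149449687 to 149454978, minus strand), a cellular retinol binding protein, ranged from 331 to 2328 CPM against 5.20 CPM. Fabp4 (chromosome 3, 10204088 to 10208576, minus strand), a fatty acid binding protein, ranged from 4463 to 24496 CPM against 132 CPM. In all 4 genes the lowest library was library 6, with 9 members of which 3 had Pecam1 alone, and the highest library 4, with 154. The lowest library still lay above the level of the other cells. These 4 genes had been proposed as markers of the cells with results of these data known, so their levels are a description.

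The start regions of genes used below to divide the members are shown. Cd36 and Rbp7 belong to the score that sets the capillary end. Both were also found in all 19 members chosen by Gja5 or Sema3g, and Cd36 in 27 of 36 chosen by Ackr1 or Selp. Selp helped to choose the venous members and was also found in 10 of 37 Cytl1 cells. Cytl1 chose a group in which most capillary genes were lower. Each window holds 250 bases before and 50 after the annotated start, from RefSeq (GRCm38.p6), 5′ to 3′ on the gene's strand, with AGGAAG, an ETS factor core, and AGGTCA, a nuclear receptor motif, in capitals where either occurs on either strand. The first start listed for each gene was used. For Cd36 that start lies inside the gene span given above and not at its upstream end.
Cd36, chr5:17835847-17836146, minus strand: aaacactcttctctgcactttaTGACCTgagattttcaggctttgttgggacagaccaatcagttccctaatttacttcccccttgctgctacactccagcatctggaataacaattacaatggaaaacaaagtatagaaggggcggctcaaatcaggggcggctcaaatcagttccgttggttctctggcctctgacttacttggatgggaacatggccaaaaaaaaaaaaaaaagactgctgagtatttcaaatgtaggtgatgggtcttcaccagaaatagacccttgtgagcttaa
Rbp7, chr4:149454919-149455218, minus strand: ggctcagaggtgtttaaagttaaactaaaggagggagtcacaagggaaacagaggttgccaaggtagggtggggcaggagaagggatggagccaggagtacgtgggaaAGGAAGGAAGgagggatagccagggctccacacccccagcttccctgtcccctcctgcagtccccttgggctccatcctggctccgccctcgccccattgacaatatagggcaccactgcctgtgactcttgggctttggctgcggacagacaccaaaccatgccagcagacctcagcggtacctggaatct
Selp, chr1:164115014-164115313, plus strand: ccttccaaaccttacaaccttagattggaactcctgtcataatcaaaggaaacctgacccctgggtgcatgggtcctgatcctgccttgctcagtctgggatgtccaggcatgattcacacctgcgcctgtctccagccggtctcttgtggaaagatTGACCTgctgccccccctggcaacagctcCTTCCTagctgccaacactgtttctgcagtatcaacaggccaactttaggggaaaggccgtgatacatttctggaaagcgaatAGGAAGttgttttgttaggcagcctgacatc
Cytl1, chr5:37735269-37735568, plus strand: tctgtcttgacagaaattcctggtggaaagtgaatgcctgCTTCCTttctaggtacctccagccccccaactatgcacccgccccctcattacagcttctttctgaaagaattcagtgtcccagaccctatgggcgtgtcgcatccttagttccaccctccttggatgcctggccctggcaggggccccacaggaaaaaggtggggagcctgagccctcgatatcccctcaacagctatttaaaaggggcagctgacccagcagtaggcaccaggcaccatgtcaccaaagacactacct
The Cd36 window held 1 nuclear receptor motif and no ETS core, Rbp7 2 overlapping ETS cores, Selp 2 ETS cores and 1 nuclear receptor motif, and Cytl1 1 ETS core. Of 27025 promoters, 35.1% held AGGAAG and 16.0% AGGTCA. Among the 15 genes with the highest ratio over other cells, 10 had a window, of which 6 held AGGAAG and 4 AGGTCA. Of 14 windows of general endothelial genes, 9 held AGGAAG and 2 AGGTCA. Of 10 windows of genes leading at the capillary-rich end described below, with all members, 4 held AGGAAG and 4 AGGTCA. Of 11 at the capillary-poor end, 2 held AGGAAG and none AGGTCA. These are matches of letters and not sites.

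Over all other QC cells, 451 of 6278 genes tested were called higher (7.18%) and 315 lower (5.02%), where a call needed a log2 ratio of at least 1 in every one of the 5 libraries with 20 or more members, and the median gene had a log2 ratio of 0.10. The median log2 ratio was 7.94 for Cd36 (6.89 to 8.80 over the 5 libraries), 7.88 for Gpihbp1, 7.86 for Rbp7 and 6.97 for Fabp4. Thinned to 3000 UMIs per cell, which kept 273 members and favoured the deeper ones, Cd36 was found in 67.8% of members (75.8% unthinned) and 0.358% of fibroblasts, and Gpihbp1 in 57.5% (66.3% unthinned) and 0.0995%. Fabp4 was found after thinning in 74.7% of members (80.5% unthinned), 5.58% of fibroblasts and 5.36% of leukocytes. The part of free RNA in the shares of fibroblasts and leukocytes was not tested. Leukocytes had Cd36 in 20.2% of thinned cells, so this gene does not separate endothelium from every other cell of the wall.

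Of 29 general endothelial genes tested, 28 were called higher, with a median log2 ratio of 5.70. The exception was Cd34, an antigen that fibroblasts share. Sox17, a transcription factor of arterial endothelium, ranged from 303 to 711 CPM over libraries against 1.02 CPM in other cells, Emcn, a sialomucin, from 98.1 to 811 against 7.30 CPM, and Kdr, the main VEGF receptor, from 36.8 to 434 against 2.75 CPM. Of 20 capillary genes, 18 were called higher, with a median of 5.25. Car4, a membrane carbonic anhydrase, was at 75.8, 145, 166, 134, 138 and 147 CPM in libraries 1 to 6 against 0.371 CPM. Aqp7, a glycerol channel, ranged from 135 to 505 against 0.966 CPM and Cd300lg, a mucin-like receptor, from 196 to 600 against 1.23 CPM. Cxcl12 and Sparcl1, which other cells of the wall also express, were not called.

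**Figure D3:**
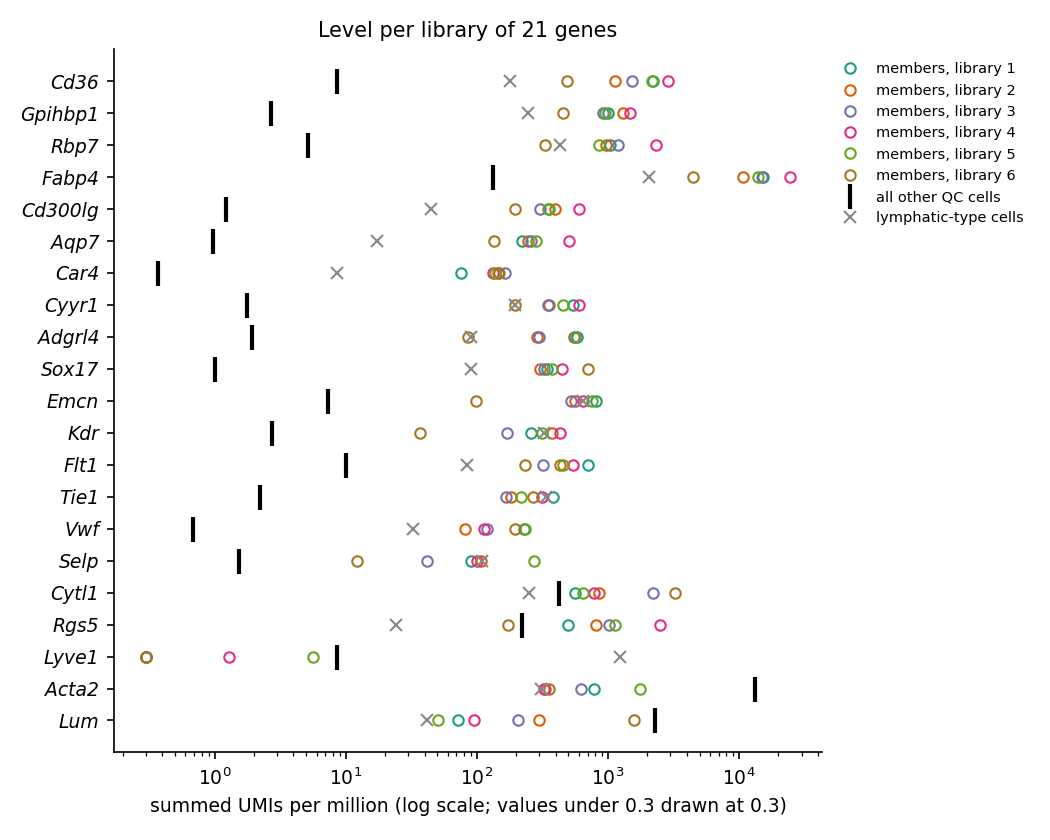
Summed CPM, UMIs in 1000000 (x axis, log scale, values under 0.3 drawn at 0.3) of 21 genes in the members of each of the 6 libraries (open circles), in all other QC cells (bars) and in lymphatic-type cells (crosses). Cd36, Gpihbp1, Rbp7 and Fabp4 lie above the other cells in every library. Lyve1 is far higher in lymphatic-type cells, and Acta2 and Lum are highest in other cells.

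Lipid genes beyond the markers were mixed, with 7 of 13 higher and 1 lower. Fabp5, another fatty acid binding protein, ranged from 520 to 1019 CPM against 71.4 CPM in other cells, and Scarb1, an HDL receptor, from 36.8 to 263 against 4.02 CPM. Pparg, the nuclear receptor that drives lipid storage genes, ranged from 0 to 129 against 2.77 CPM and was at 0 in library 6, and Tcf15, a transcription factor of heart and muscle capillaries, ranged from 61.3 to 421 against 0.938 CPM. Vldlr, the VLDL receptor, was lower, ranging from 0 to 12.3 against 47.9 CPM. Lpl, lipoprotein lipase, ranged from 73.6 to 309 against 109 CPM and was not called.

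Genes of arterial and venous identity were present in the same population, 11 of 21 arterial and 9 of 15 venous genes being called higher. Of the arterial genes, Gja5, connexin 40, ranged from 9.05 to 85.8 CPM over libraries against 0.264 CPM in other cells, and Bmx, a tyrosine kinase of arterial endothelium, from 22.6 to 172 against 1.12 CPM. On the venous side, Selp, P-selectin, ranged from 12.3 to 274 against 1.53 CPM, and Ackr1, a chemokine scavenger of venules, from 0 to 155 against 1.28 CPM. Ackr1 was at 0 in library 6 and at 9.05 CPM in library 2, so its level varied more between libraries than that of Sox17. Vwf, von Willebrand factor, was at 231, 81.5, 120, 114, 234 and 196 CPM against 0.680 CPM.

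Of 16 genes of VEGF and angiopoietin signalling, 10 were called higher, and Vegfb, a ligand, was lower. Flt1, a VEGF receptor, ranged from 233 to 705 CPM against 10.1 CPM, Tie1, an orphan receptor of the angiopoietin system, from 168 to 383 against 2.22 CPM, and Pdgfb, the ligand that draws mural cells to vessels, from 68.8 to 144 against 2.66 CPM. Of 14 Notch genes, 7 were higher and Heyl, a target of mural cells, was lower; Notch1 ranged from 49.0 to 103 against 11.2 CPM and its ligand Dll4 from 36.8 to 116 against 0.545 CPM. The ligand Jag1, which other wall cells also held, ranged from 58.4 to 331 against 66.4 CPM and was not called.

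The mutated pathway of the study was read in 25 genes of TGF-β and BMP signalling. Only the endothelial receptors Eng and Acvrl1, the ligand Bmp6 and the BMP target Id1 were called higher and none was called lower. Eng ranged from 314 to 697 CPM over libraries against 72.2 CPM in other cells, Acvrl1, the endothelial type I receptor, from 65.0 to 282 against 35.3 CPM and Id1 from 440 to 956 against 167 CPM. Tgfbr1 itself was at 56.8, 22.6, 31.5, 16.9, 28.2 and 12.3 CPM in the 6 libraries, against 57.5 CPM in other cells, with a median log2 ratio of -1.02 (-1.67 to -0.36), and was not called, whereas among the 336 members with Cdh5 or Egfl7 it was called lower, at 18.1 CPM. Tgfbr2 ranged from 53.2 to 123 against 77.8 CPM. Gata4, the transcription factor at the centre of the study, had 6 UMIs in all members, or 2.73 against 22.5 CPM.

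Flow and nitric oxide genes split 8 higher and 2 lower of 18. Nos3, endothelial nitric oxide synthase, ranged from 34.1 to 110 CPM against 2.31 CPM, Klf2, a factor induced by laminar flow, from 1214 to 2174 against 369 CPM, and Edn1, endothelin, from 45.3 to 418 against 24.4 CPM. Interferon-response genes were higher in 8 of 17 and lower in none, and their level differed between libraries: Iigp1, an interferon-induced GTPase, was at 72.0, 285, 120, 593, 542 and 49.0 CPM against 14.8 CPM in other cells. Libraries 4 and 5 were the highest and library 6 the lowest. Irf1, a factor named in the study, followed a like order, from 159 to 709 CPM, and was not called. Of 10 antigen presentation genes, 3 were higher and 4 lower, the latter being the class II genes H2-Aa, H2-Ab1, H2-Eb1 and Cd74, the invariant chain, which ranged from 3.79 to 196 CPM over libraries against 719 CPM. Of 15 basement membrane genes, only the collagen and laminin receptors Itga1 and Itga6 were higher and Col18a1, a vessel collagen, was lower.

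Markers of smooth muscle, fibroblasts and leukocytes were low, as a gate on Myh11, Dcn and Ptprc asks. Smooth muscle markers outside the gate were lower in 9 of 9, summing to 1827 CPM in members (846 to 4590 over libraries), fibroblast markers in 8 of 9, summing to 2725 CPM (633 to 9686), and leukocyte markers summed to 34.1 CPM with Cd3e at 0. Other marker sets summed to more in members than in other QC cells: pericyte markers to 1824 against 606 CPM, adipocyte markers to 93.3 (3.79 to 161) against 6.61 CPM, hemoglobin genes and other erythrocyte markers to 1984 (0 to 4918) against 19.1 CPM and mesothelial markers to 20.0 against 2.39 CPM. Without members with 3 or more pericyte UMIs, 505 genes were called higher and 450 lower, and without those with a hemoglobin UMI 446 and 307. The mesothelial sum was mostly Wt1, a transcription factor also of some growing vessels, with Upk1b, Krt8 and Lrrn4 at 0 in members. The part of adipocyte and mesothelial RNA in the ratios was not tested. The 23 genes of dissociation stress summed to 33322 CPM in members (16453 to 41352 over libraries) against 22842 CPM in other QC cells (18215 to 28564), the 2 ranges overlapping, and of the 23 Dnaja1, a heat shock co-chaperone, was called higher and none lower. Without the 44 cells with Pecam1 alone, the call of lower genes over other cells rose to 513 of 6261 (8.19%) and of higher genes to 543 (8.67%).

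Against lymphatic-type endothelium, read in libraries 3, 4 and 5, 212 of 6398 genes were called higher (3.31%) and 164 lower (2.56%), where a call needed a log2 ratio of at least 1 in the sums and in every one of the 3 libraries. General endothelial genes were shared, with 5 of 30 higher, none lower and a median log2 ratio of 0.01 against -0.05 over all genes tested. Emcn was at 627 CPM in members and 641 CPM in lymphatic-type cells, and Kdr at 313 and 323 CPM. Capillary genes stood apart, with 14 of 20 higher and a median of 3.30. Cd36 had log2 ratios of 7.26, 4.24 and 7.19 in libraries 3, 4 and 5, with lymphatic-type cells at 6.67, 151 and 9.92 CPM. Over all libraries it was at 178 CPM in lymphatic-type cells, a log2 ratio of 3.56, since 59 of their 103 Cd36 UMIs lay in the 3 lymphatic-type cells of library 1, which entered no call. It was found after thinning in 4.94% of them against 67.8% of members. With the 336 members alone, 226 of 6325 genes were higher (3.57%) and 201 lower (3.18%). Rbp7 was also called higher in members, with log2 ratios of 1.33 to 3.21 over the 3 libraries and 430 CPM in lymphatic-type cells, but was found in 49.4% of thinned lymphatic-type cells (57.7% unthinned) against 53.5% of members (62.6% unthinned). The member shares count the 44 cells with Pecam1 alone, of which 0 held an Rbp7 UMI.

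Of 12 listed lymphatic genes outside the gate, 10 were lower in blood vessel cells. Lyve1, a hyaluronan receptor, had 3 UMIs in all 380 members, or 1.36 CPM, against 1232 CPM, Reln, a secreted lymphatic glycoprotein, had none against 237 CPM, and Maf, a transcription factor, was at 10.0 against 952 CPM. Nr2f2, which specifies veins and lymphatics, was at 99.6 against 978 CPM. Of the TGF-β genes only Tgfbr2 was called, at 67.3 CPM in members against 278 CPM.

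Pericyte transcripts were part of the difference from lymphatic-type cells, with all 5 of the pericyte genes tested called higher. Rgs5, a G-protein regulator of mural cells, was at 1444 CPM in members and 24.2 CPM in lymphatic-type cells and was found in 168 members, and the 9 pericyte markers summed to 1824 CPM (591 to 2930 over libraries) against 53.6 and, in other QC cells, 606 CPM. Among the 336, 25 cells held 3 or more UMIs of 7 pericyte genes, with a median of 10936 UMIs per cell and 2 marked doublets. The gate did not use Rgs5. Without those of the 380 members that held as many pericyte UMIs, the median log2 ratio of Rgs5 over lymphatic-type cells was 6.47, against 7.84 with all members. Ndufa4l2, also outside that gate, went from 5.46 to 2.90. Kcnj8 went from 2.04 to -1.55, Abcc9 from 2.67 to -0.091 and Pdgfrb from 2.69 to 1.12, and these genes helped to choose the cells left out. The part of joined cells in these values was not tested.

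Differences among the members were read along the 4 capillary markers. A score was made of Cd36, Rbp7, Gpihbp1 and Fabp4, in UMIs per 10000, and 1 in 3 members of each library was taken from each end. The median score was 181, 146, 98.0, 311, 148 and 18.8 in libraries 1 to 6, and 4, 3, 36, 15, 7 and 4 members had a score of 0. The ends are cut from a score and are not cell types, and 130 members lay between them by construction. The capillary-rich end held 125 cells with a median of 3464 UMIs and the capillary-poor end 125 with 6093, and 33 of the latter were members with Pecam1 alone. Depth thus moved with the score.

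With all members, 270 of 6231 genes were called higher at the capillary-rich end (4.33%) and 412 lower (6.61%), in sums and in the same direction in each of 5 libraries. Thinned to 3000 UMIs per cell, the counts were 222 and 240. With the 336 alone, 111 cells at each end, the counts were 145 of 6088 (2.38%) and 233 (3.83%). The 336 are used in what follows, since fibroblast markers were lower at the rich end in 6 of 8 with all members and in 1 of 7 with the 336. The sign of 3 genes changed between them: Lum, a small proteoglycan, had a log2 ratio of 0.30, Sox9 of 0.44 and Fbln1 of 0.90 with the 336.

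At the capillary-rich end, 13 of 20 capillary genes outside the score were higher and Plvap, the diaphragm protein of fenestrated endothelium, was lower. Car4 was at 449 CPM at the rich end and 16.3 CPM at the poor end, with log2 ratios from 1.67 to 7.01 over 5 libraries. Lpl was at 594 against 57.8 CPM, Aqp7 at 818 against 91.9 CPM, Pparg at 216 against 29.6 CPM and Rgcc, a cell cycle regulator induced by complement, at 1436 against 199 CPM. Of 13 lipid genes, 6 were higher and none lower. Cxcl9, an interferon-induced chemokine, was at 156 against 4.44 CPM, although only 1 of 18 interferon genes was called. Adipocyte markers moved with this end as well, summing with all members to 272 CPM at the rich end (12.5 to 667 over libraries) and 2.41 CPM at the poor end, where 5 of 6 of them were at 0. An adipocyte UMI was found in 36 members, and the part of fat cell RNA in the lipid genes was not tested.

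Genes of larger vessels and veins were lower at the capillary-rich end, 9 of 23 large-vessel genes and 6 of 15 venous genes, with none higher in either list. Cytl1, a small secreted cytokine-like protein, was at 0 at the rich end and 2730 CPM at the poor end. Vwf stood at 48.4 against 317 CPM, Selp at 8.80 against 283 CPM, Sele, E-selectin, at 2.20 against 249 CPM, Mgp at 273 against 2859 CPM, Jag1 at 24.2 against 138 CPM and Tgfb2, a TGF-β ligand, at 2.20 against 60.7 CPM. Of 29 general endothelial genes, Kdr, Fli1 and Cyyr1 were higher and Plvap and Vwf lower, with log2 ratios from -3.11 to 1.51 and a median of -0.02 against -0.06 over all genes. Emcn was at 728 and 710 CPM.

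**Figure D4:**
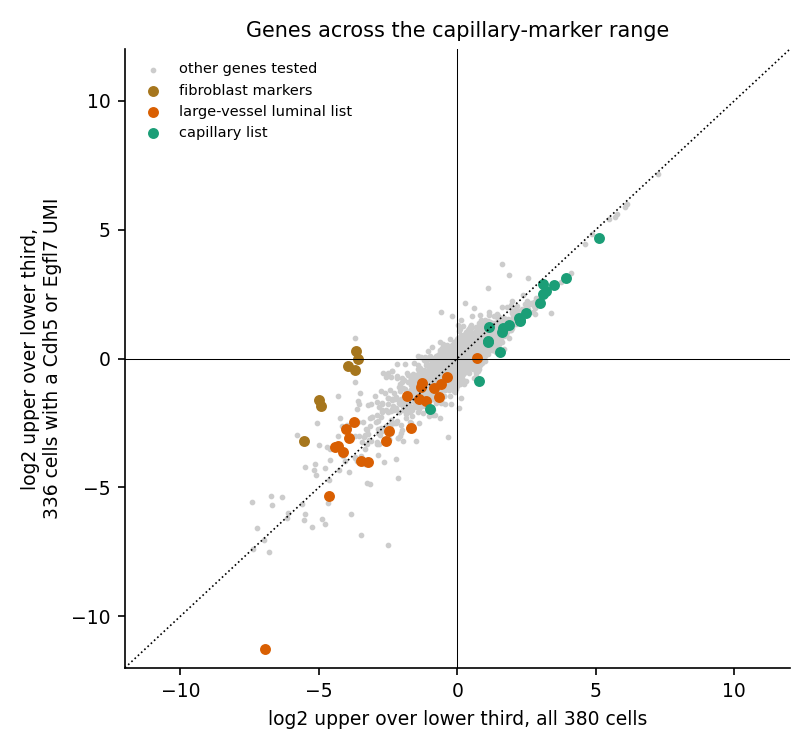
Log2 ratio of each gene between the capillary-rich and capillary-poor ends, with all 380 members (x axis) and with the 336 that held a Cdh5 or Egfl7 UMI (y axis); grey points are other genes tested, and the dotted line marks equal values. Most capillary genes lie to the upper right and most large-vessel genes to the lower left, while fibroblast markers lie above the dotted line, with values nearer 0 or above it on the y axis.

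Groups among the 336 were described with 5 gates set after their genes were seen. They took 37 cells with 3 or more Cytl1 UMIs, 36 with 2 or more of Ackr1 and Selp, 19 others with 2 or more of Gja5 and Sema3g and fewer than 3 Cytl1 UMIs, 26 with 2 or more of Esm1 and the 25 with 3 or more UMIs of 7 pericyte genes, and left 206. Of the 37 Cytl1 cells, 34 lay at the poor end, as did 24 of the 36 Ackr1 or Selp cells, 3 of the 19 Gja5 or Sema3g cells, 12 of the 26 Esm1 cells and 9 of the 25 with pericyte UMIs. The Cytl1 and the Ackr1 or Selp groups shared 6 cells, and the Cytl1 and Esm1 groups 1. The group with pericyte UMIs shared 2 cells with each of the Ackr1 or Selp, Gja5 or Sema3g and Esm1 groups. The gates depend on depth, since the 206 had a median of 3476 UMIs against 5223 in the Cytl1 cells, and a gate's own genes are no result. The 206 met none of the 5 gates, so low levels of gate genes in them are no result either.

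The 37 Cytl1 cells came from all 6 libraries, with 1, 3, 11, 12, 6 and 4 cells, and held little of the capillary markers. Cytl1 was not particular to them, since 27 of the 44 members with Pecam1 alone also held a UMI of it. A Gpihbp1 UMI was found in 0 of 37 cells, which by a limit of 3 cells allows up to 8.11% of cells with a UMI and sets no limit on cells that express the gene, and its level was at least 142-fold lower than the 1985 CPM of the 206. Cd36 was at 55.9 against 3225 CPM and in 5 of 37 cells, Fabp4 was found in 13 and Rbp7 in 7, and Kdr was at 9.31 against 444 CPM and in 2. Against the 206, 592 of 6332 genes were higher (9.35%) and 593 lower (9.37%), in 3 libraries, and 16 of 20 capillary genes were lower with none higher. Of 24 large-vessel genes, 18 were higher, among them Cytl1, which chose the cells and is no result. Cytl1 and Vwf also stand on a list of valve and endocardial genes, so they do not tell large vessels from valves. Whether any of the 37 came from a valve was not tested. Clu, clusterin, was at 6660 against 437 CPM, Mgp at 7125 against 352 CPM, Eln, elastin, at 792 against 45.1 CPM, Vwf at 629 against 88.0 CPM and Nos3 at 214 against 46.1 CPM. The thrombin co-receptor Thbd, thrombomodulin, was at 759 against 218 CPM and Procr, the protein C receptor, at 810 against 85.8 CPM. Serpina1b, a protease inhibitor, was at 1132 against 2.15 CPM, while Nppc, C-type natriuretic peptide, at 582 CPM, and Klk10, a kallikrein, at 251 CPM, were at 0 in the 206.

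Arterial genes were higher in these cells in 10 of 21, with Nrp1 lower. The 10 include Gja5, which was found in 21 of 37 cells, at 363 against 3.22 CPM. Its low level in the 206 was set by the Gja5 and Sema3g gate, so that ratio is no result. Gja4, connexin 37, was at 405 against 32.2 CPM, Bmx at 456 against 16.1 CPM and Jag1 at 345 against 23.6 CPM. Of the venous genes, Nr2f2 and Ackr1 were each found in 0 of 37, Selp in 10 and Ephb4, a venous ephrin receptor, in 16, or 43.2%, against 26.2% of the 206. General endothelial genes were 8 higher and 8 lower of 29, and their sum was 13655 CPM against 11684 in the 206, so the cells were endothelial by that list. Stress genes were lower in 19 of 23, summing to 10981 against 36463 CPM, with Fos, an immediate early gene, at 1006 against 4940 CPM and Egr1 at 214 against 2088 CPM. Fibroblast markers were higher in 3 of 6, namely Gsn, Serpinf1 and Mfap5, and 9 of 16 basement membrane genes, Col4a1 and Col4a2 among them, were lower.

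Venous and arterial members differed from the 206 in narrower ways. In the 36 Ackr1 or Selp cells, 8 of 15 venous genes were higher, against 163 of 5971 genes in all (2.73%). Of the 5971, 266 were lower (4.45%). The 8 include Ackr1 and Selp, which chose the cells and are no result. Sele was at 682 against 17.2 CPM, Icam1, a leukocyte adhesion receptor, at 1575 against 518 CPM, Plvap at 1729 against 579 CPM and Lrg1, a secreted glycoprotein of venules, at 870 against 240 CPM, while Car4 was at 7.54 against 268 CPM. In the 19 Gja5 or Sema3g cells, 15 of 21 arterial genes were higher, against 404 of 6018 genes in all (6.71%), in 2 libraries. Of the 6018, 322 were lower (5.35%). The 15 include Gja5 and Sema3g, which chose the cells and are no result. Sox17 was at 1216 against 486 CPM, the Notch target Hey1 at 559 against 77.2 CPM, Vegfc, a VEGF ligand, at 397 against 30.0 CPM and Fbln5, an elastic fibre protein, at 1102 against 112 CPM. Rbp7 was also higher in them, at 4523 against 2251 CPM. Cells with Gja5 were split by the Cytl1 gate beforehand, and 13 of the 19 held a Gja5 UMI. Cd36 was at 2821 CPM in the 19 and 55.9 CPM in the Cytl1 cells.

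The 26 Esm1 cells were close to the 206, with 166 of 6009 genes higher (2.76%) and 193 lower (3.21%). None of the 20 capillary genes outside the score was called in them. Fabp4, with a log2 ratio of -1.03, Fabp5 and Lpl were lower. Of 15 VEGF genes, 4 were higher, among them Esm1, a secreted proteoglycan, which chose the cells and is no result. Apln, apelin, was at 129 against 10.7 CPM, Dll4 at 237 against 99.8 CPM and Angpt2 at 108 against 45.1 CPM. The 25 cells with pericyte UMIs had 332 of 5980 genes higher (5.55%) and 212 lower (3.55%). Rgs5, which the gate did not use, was at 7823 against 832 CPM in them, 6 of 7 smooth muscle genes were higher, with Acta2, smooth muscle actin, at 689 against 321 CPM, and endothelial genes summed to 8388 CPM, so transcripts of both cell types lay in the same barcodes.

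**Figure D5:**
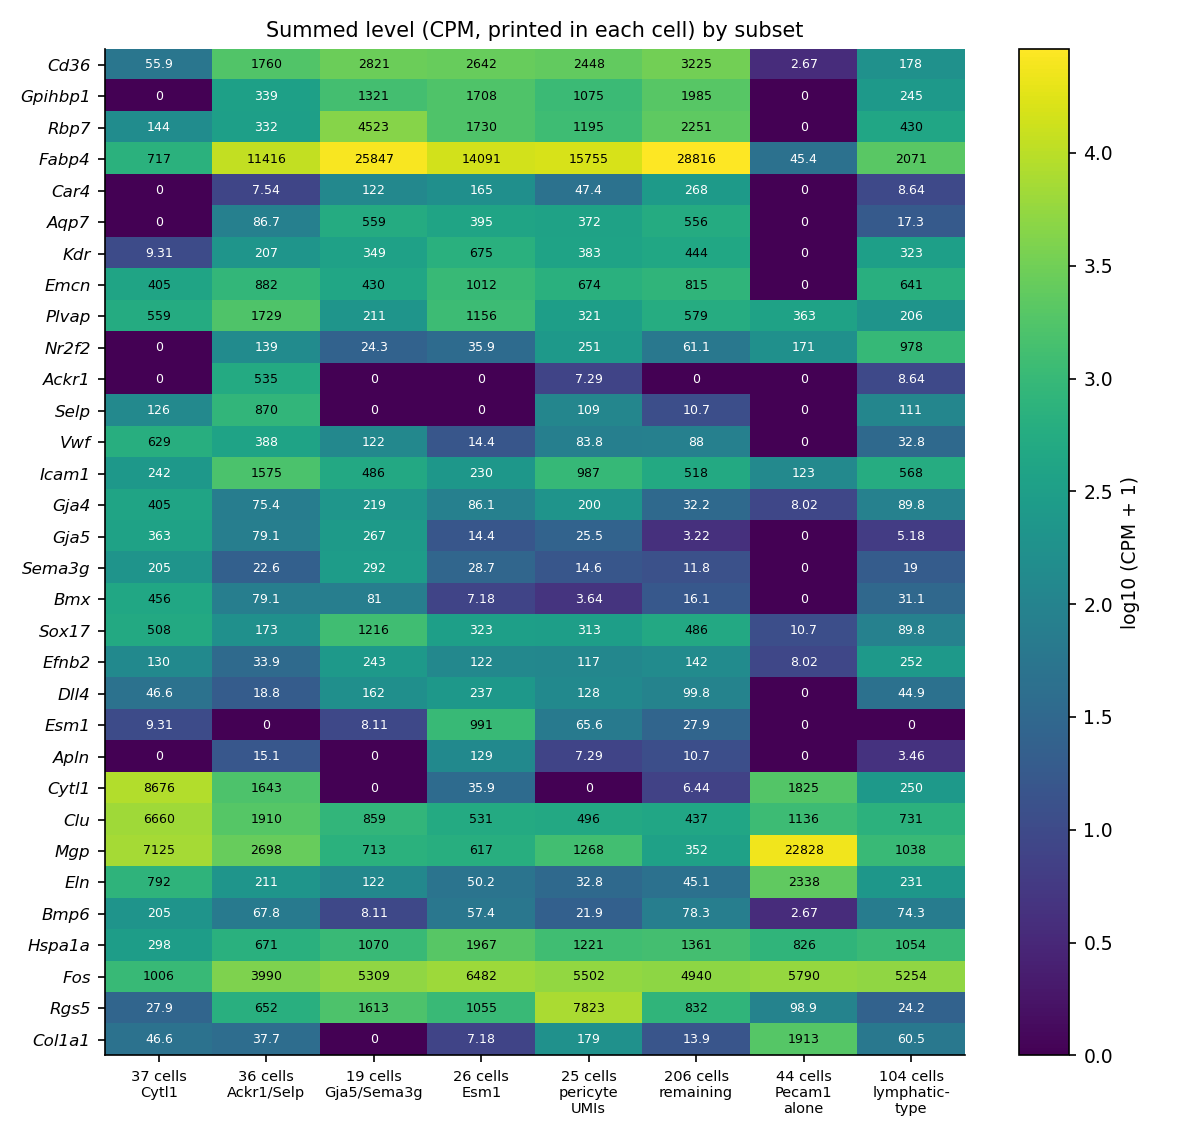
Summed CPM (printed in each field, colour by log10 of CPM plus 1) of 32 genes (rows) in the gated groups of members, the remaining 206, the 44 with Pecam1 alone and the 104 lymphatic-type cells (columns). The Cytl1 column has 0 for Gpihbp1 and 8676 for Cytl1, and Ackr1 is at 535 in the Ackr1 or Selp cells and 0 in the Cytl1 cells.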

How the data were processed

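Single-cell RNA-seq libraries (10x Genomics 3′ v3, polyA RNA) were made from 6 mouse aortas. The authors aligned reads to mm10 with Cell Ranger 6 according to the labels, and deposited raw UMI counts of 31055 features in 30716 barcodes as a pooled matrix whose header names version 4.0.0. Whether depth was equalized between libraries is not given in the sources used here. Counts were summed over cells per library and scaled to 1000000 (CPM). Log2 ratios used a prior of 0.5 UMI, and genes needed a mean of 20 CPM in the cells compared. Cells are not replicates and libraries have no known group, so no tests were run and errors are ranges over libraries or exact (Clopper-Pearson) 95% intervals, which cover counting error only. Library totals of member UMIs ranged from 81564 to 770253. Doublets, called by scrublet in scanpy 1.11.5 with an expected rate of 0.06, were kept, and their removal was an alternative. In library 5, where the automatic threshold marked under 0.5% of cells, the 5% with the highest scores were marked.

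For 35 repeated symbols the gene identifier was used. Named genes were those of fixed lists, the 15 highest and 10 lowest called ratios per comparison, and for the ends of the capillary score 15 on each side. Prg4, Sox9, Osr1 and Fbln1 and the genes named in the gated groups were chosen after their values were seen. The members and all lists were chosen with earlier results of these data known. The comparison was tested on simulated counts. Coordinates came from GENCODE M21 and promoters from RefSeq. Python 3.11.15, numpy 2.4.6, scipy 1.17.1, pandas 2.3.3 and matplotlib 3.10.9 were used. Other thresholds, filters, priors, thinning to 3000 UMIs, removal of doublets and leaving out each library were tried, as were, after seeing the data, members with Cdh5 or Egfl7 and members without pericyte or hemoglobin UMIs.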

Additional observations from a re-analysis of the deposited data

Results flagged for a closer look

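Of 26 values read per library, the share of members and the ratios of the genes that led over other QC cells in either direction, 2 had 1 library that stood apart by Dixon's criterion, which chance meets in about 1 in 20 groups. H2-Eb1, a class II antigen presentation gene, had a log2 ratio of -1.88 in library 5, where the gap to the nearest library was 0.820 of the range, and was lower in all 5 libraries. Wnt16, a ligand of smooth muscle cells and fibroblasts, had a log2 ratio of -2.46 in library 2, with a gap of 0.764 of the range, and was also lower in each library.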

How the results depend on the processing

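No paired analysis was possible because no library could be given a group or a replicate number, and no test was run. Of 120 values of the share and of the 6 counts of called genes under the alternatives, 96 stayed within 1.5 times the reported count or within the spread over libraries, and 24 moved. With members that held a UMI of Cdh5 or Egfl7, the genes lower than in other cells were 513, the genes higher at the capillary-rich end 145 and at the capillary-poor end 233. With doublets removed, the genes lower than in lymphatic-type cells were 265, library 5 then having fewer than 10 lymphatic-type cells. A mean of 50 CPM gave 240 higher and 192 lower genes over other cells, 107 and 103 over lymphatic-type cells and 220 at the poor end. Without a filter, 690 and 640 were called over other cells and 483 higher over lymphatic-type cells. Calls on the sums alone gave 838 and 640 over other cells, 483 and 468 over lymphatic-type cells, and 425 at the rich and 651 at the poor end. Thinning gave 240 at the poor end, and an even split at the median score gave 179 at the rich end.

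Leaving out each library in turn gave 445 to 564 higher and 310 to 461 lower genes over other cells, 206 to 320 higher and 160 to 288 lower over lymphatic-type cells, 261 to 442 at the rich and 416 to 529 at the poor end, and a share of 1.18 to 1.33%. The largest shifts were 320 and 275 over lymphatic-type cells without library 3, 288 lower without library 5 and 442 at the rich end without library 4. In each of these, 1 library fewer had to pass than in the reported call. Of 7658 values of single genes, 7171 stayed the same, 477 moved with the sign kept and 10 changed sign. Sost over lymphatic-type cells went to -0.21 with 5 gate UMIs, -0.27 without Myh11 and Dcn UMIs and -1.14 with Cdh5 or Egfl7. Between the score ends, Tagln went to 0.081 and Alox12 to -0.37 without Myh11 and Dcn UMIs, and Lum to 0.30, Sox9 to 0.44 and Fbln1 to 0.90 with Cdh5 or Egfl7. Over lymphatic-type cells, Kcnj8 went to -1.55 and Abcc9 to -0.091 without members with 3 or more pericyte UMIs, which these 2 genes helped to choose. Library 6, with 9 members, entered no call over other cells. The lymphatic-type comparison rests on 3 libraries and the arterial and pericyte gates on 2, so a gene that misses a call there cannot be called equal.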

Other observations

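Hemoglobin UMIs were found in 22 members, 3 or more in 7 and 100 or more in 2. The genes Hba-a1 and Hba-a2, like Hbb-bs and Hbb-bt, are near-identical copies, so their counts may be split between them. Proliferation genes summed to 270 CPM in members against 97.4 CPM in other QC cells, and the only such gene with enough counts was not called. Wt1, a transcription factor of mesothelium and of some growing vessels, had 41 UMIs, at 18.7 CPM against 0.421 CPM in other cells, with the highest level in library 4 at 35.1 CPM and none in library 6. The GFP sequence of the lineage reporter had 4 UMIs in members, or 1.82 CPM, against 27.6 CPM in lymphatic-type cells and 4.99 CPM in other QC cells.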
